A study of Homo sapiens with 44 samples.

Results

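The IFIT gene cluster on human chromosome 10 was described through its accessible chromatin in Ccd18-Co, a fibroblast line from human colon. Its members were the 58 of 407383 deposited accessibility peaks whose name gives IFIT1, IFIT1B, IFIT2, IFIT3 or IFIT5 as the gene, with 22 peaks at IFIT2, 17 at IFIT3, 7 at IFIT1, 7 at IFIT1B and 5 at IFIT5. All 58 passed the filter on low coverage, as did 407176 peaks in all. ATAC-seq, in which a transposase inserts adaptors into accessible DNA, was performed on 44 libraries in 11 groups of 4 replicates. One group was unstimulated, and the others received 1 cytokine each, namely IL-1β at 0.1 ng/ml, or IFNα, IFNγ, TNF, oncostatin M (OSM), TGF-β1, IL-6, IL-13, IL-17A or IL-22 at 10 ng/ml. All cells came from the same line, were deprived of serum before stimulation per the study's methods, and were collected after a day. Nothing in the labels says that the replicates came from separate cultures, so p-values measure the spread between these libraries, which may be technical.

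IFIT proteins are built of tetratricopeptide repeats and are made in large amounts when cells sense interferon or viral RNA. IFIT1 binds RNA with a foreign 5′ end and blocks its translation, IFIT2 and IFIT3 form complexes with IFIT1, IFIT5 binds RNA with a 5′ triphosphate, and IFIT1B is a close relative of IFIT1 whose human role is little known. Type I interferons such as IFNα act through IFNAR1 and IFNAR2, JAK1 and TYK2 to assemble the factor complex ISGF3, which binds the interferon-stimulated response element (ISRE) in the promoters of these genes. IFNγ, the type II interferon, acts through IFNGR1 and IFNGR2, JAK1 and JAK2 on genes with the GAS element, and it induces IRF1, which also recognises ISRE-like sequence.

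The sequences around the start sites are shown because these peaks could be compared letter by letter with the interferon element. Each stretch runs from 180 bases before the annotated start through the first 20 transcribed bases (build hg38, chromosome 10, plus strand, 5′ to 3′), and capitals mark each ISRE match, defined as GAAA, any 2 bases, GAAA on either strand. On the plus strand a match to the minus strand reads TTTC, any 2 bases, TTTC.
IFIT2 (chr10:89301866-89302065): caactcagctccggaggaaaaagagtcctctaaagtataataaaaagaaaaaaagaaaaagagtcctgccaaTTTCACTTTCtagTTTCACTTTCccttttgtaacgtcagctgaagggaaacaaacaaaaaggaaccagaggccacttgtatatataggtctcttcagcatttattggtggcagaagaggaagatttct
IFIT3 (chr10:89327817-89328016): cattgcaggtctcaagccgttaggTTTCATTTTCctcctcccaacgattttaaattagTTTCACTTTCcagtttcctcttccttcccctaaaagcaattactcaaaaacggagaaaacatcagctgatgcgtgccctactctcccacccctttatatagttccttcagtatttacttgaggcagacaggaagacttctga
IFIT3, second RefSeq start (chr10:89332349-89332548): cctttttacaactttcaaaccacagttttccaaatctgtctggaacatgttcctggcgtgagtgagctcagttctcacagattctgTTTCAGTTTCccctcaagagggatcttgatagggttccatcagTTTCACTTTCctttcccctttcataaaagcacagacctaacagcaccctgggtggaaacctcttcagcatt
IFIT1 (chr10:89392443-89392642): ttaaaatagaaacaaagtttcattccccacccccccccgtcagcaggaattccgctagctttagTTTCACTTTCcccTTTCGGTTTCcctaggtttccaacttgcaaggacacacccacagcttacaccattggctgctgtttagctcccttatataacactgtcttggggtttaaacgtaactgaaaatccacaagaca
IFIT5 (chr10:89414388-89414587): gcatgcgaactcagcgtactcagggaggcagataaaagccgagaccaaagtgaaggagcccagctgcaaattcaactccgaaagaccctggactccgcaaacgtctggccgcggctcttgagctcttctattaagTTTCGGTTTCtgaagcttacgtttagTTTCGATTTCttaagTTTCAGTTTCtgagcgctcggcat
IFIT2, IFIT1 and both IFIT3 starts held 2 matches each, and IFIT5 held 3. In the RefSeq table of promoters (GRCh38.p14, 250 bases before to 50 after a start), IFIT1, both IFIT3 entries and IFIT5 had the same counts and IFIT1B had 0. Of all 35116 RefSeq promoters of that length, 3.57% held at least 1 match and 0.259% held 2 or more.

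Outside the start sites, 2 further stretches are shown, each of 200 bases. The one listed first is from a peak upstream of IFIT2 with 2 ISRE matches, and the other is from the peak with the largest IFNα change among the 58, which holds no match.
IFIT2, -6.14 kb (chr10:89295718-89295917): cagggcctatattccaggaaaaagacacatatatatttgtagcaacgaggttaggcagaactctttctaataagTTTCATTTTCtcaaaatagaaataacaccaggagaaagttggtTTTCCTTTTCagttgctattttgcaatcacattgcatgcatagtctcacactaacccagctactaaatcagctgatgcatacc
IFIT2, +8.22 kb (chr10:89310169-89310368): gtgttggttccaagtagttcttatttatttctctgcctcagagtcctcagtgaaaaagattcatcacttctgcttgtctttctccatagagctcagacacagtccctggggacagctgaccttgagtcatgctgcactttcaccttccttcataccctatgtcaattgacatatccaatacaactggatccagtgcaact
Over the full 500 bases, 11 of the 58 IFIT peaks (19%) held an ISRE match and 8 (13.8%) held 2 or more. Among all deposited peaks the shares were 9.11% and 0.865%. The GAS element (TTC, any 3 bases, GAA, which reads the same on both strands) was found in 17 IFIT peaks (29.3%) and in 17.2% of all peaks. A match describes the letters only.

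The 5 genes lie in the order IFIT2, IFIT3, IFIT1B, IFIT1 and IFIT5, all on the plus strand, with GENCODE v44 start sites at 89302046, 89327997, 89378056, 89392623 and 89414568. They share their ground with LIPA, the gene of lysosomal acid lipase, which runs on the minus strand and whose longest transcript spans 89213569 to 89414557. Consequently 54 of the 58 peaks overlap a LIPA exon or intron, and the deposited classes (46 intronic, 7 promoter, 3 exonic, 2 distal) do not say which gene an intron belongs to. Only 15 of the peaks lie inside a canonical IFIT transcript and 13 overlap an exon of an IFIT gene. Peaks are named below by gene and by the distance of their centre from that gene's own start. IFIT2, IFIT3, IFIT1 and IFIT5 each had a peak on their start site, while the nearest edge of any peak lay 2786 bases from the IFIT1B start.

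Coverage is given per megabase (Mb) of a library's total coverage over peaks, adjusted for composition. Library totals ran from 148.8 Mb (IL-6 replicate 4) to 823.1 Mb (IFNα replicate 2), and libraries of the same group correlated at 0.772 to 0.935. All 8 fibroblast markers examined, collagens COL1A1, COL1A2 and COL3A1 among them, had a start-site peak, with medians over libraries of 4.96 to 39.2 per Mb. Start-site peaks were present for 1 of 4 epithelial, 3 of 3 endothelial and 1 of 4 leukocyte markers, with medians of at most 1.12 per Mb. The summed fibroblast marker coverage was 110.1 to 129.7 per Mb in unstimulated, 119.3 to 127.7 in IFNα and 113.2 to 129.6 in IFNγ libraries. In these bulk libraries, a peak that opens further in each cell and a peak that opens in more cells cannot be told apart.

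More IFIT peaks were raised with the interferons than with any other cytokine tested. With IFNα, 15 of the 58 IFIT peaks were raised and 1 was lowered, where 0.513% of all tested peaks were raised and 0.334% lowered (limma, Benjamini-Hochberg adjusted p under 0.05 over all tested peaks). With IFNγ, 12 were raised and none lowered, against 1.48% and 0.275% of all peaks. The none holds for the adjusted threshold. At an unadjusted p under 0.05, 22 IFIT peaks passed in either direction, the 12 raised among them, where 9.83% of all tested peaks did. The median log2 change of the 58 peaks was 0.40 with IFNα and 0.39 with IFNγ, while the median over all tested peaks was 0.01 and -0.01. These comparisons share the unstimulated libraries. Raised with both were 10 peaks, which is 66.67% of those raised with IFNα and 83.33% of those raised with IFNγ.

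By gene, IFNα raised 8 of 17 peaks named IFIT3, 4 of 22 named IFIT2, 2 of 7 named IFIT1, 1 of 7 named IFIT1B and 0 of 5 named IFIT5. IFNγ raised 5 of 17, 5 of 22, 2 of 7, 0 of 7 and 0 of 5, in the same order. Of the 11 peaks with an ISRE match, 7 were raised with IFNα and 7 with IFNγ, and of the 47 without one, 8 and 5 were raised. Over all tested peaks with a match, 1.31% were raised with IFNα and 7.13% with IFNγ, and over those without, 0.433% and 0.913%.

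**Figure D1:**
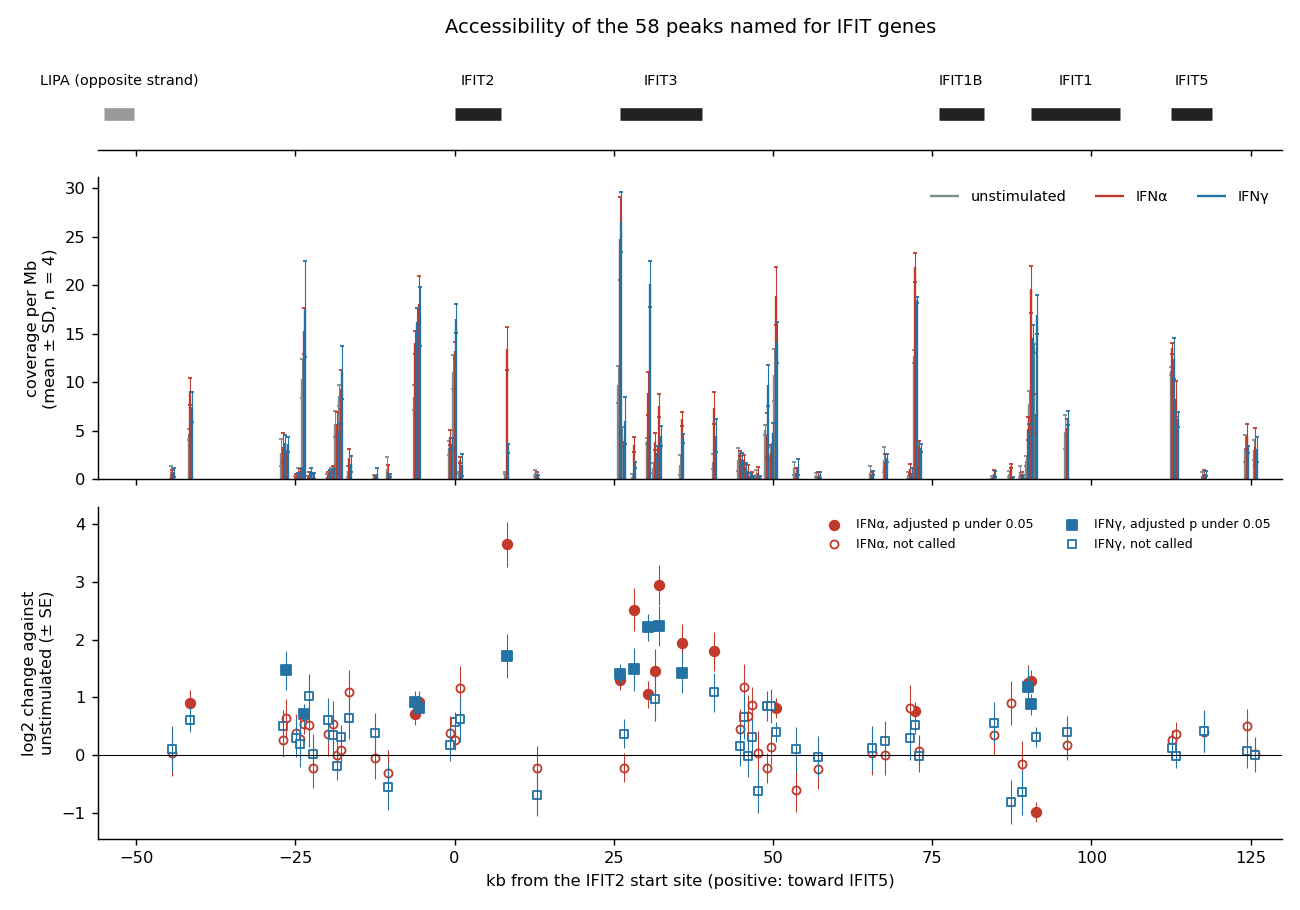
The 58 IFIT peaks along the locus, with the distance from the IFIT2 start in kb on the x axis. Black bars are canonical IFIT transcripts and the grey bar is the canonical LIPA transcript, which runs off the left edge. The middle panel gives coverage per Mb (mean ± SD, 4 libraries per group) in unstimulated, IFNα and IFNγ libraries, and the lower panel the log2 change against unstimulated ± SE, filled where called. Raised peaks lie at IFIT2, IFIT3 and IFIT1, with 1 more named IFIT1B. The largest change on this log2 scale is the IFNα value of 3.65 just past IFIT2.

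At the IFIT3 start site (chr10:89327734-89328234), coverage in the unstimulated libraries was 10.9, 11.5, 9.41 and 7.25 per Mb. With IFNα it was 30.2, 25.8, 20.2 and 23.1 per Mb, and with IFNγ 30.4, 26.6, 22.8 and 26.4 per Mb. Every interferon library lay above every unstimulated library, and the interferon groups overlapped each other. The log2 change was 1.31 ± 0.17 (SE) with IFNα and 1.41 ± 0.17 with IFNγ (limma adjusted p = 3.4e-09 and 1.9e-11), a ratio of means of 2.54 and 2.72. In the order of the 11 group means, IFNγ at 26.5 ± 3.10 (SD, n = 4) and IFNα at 24.8 ± 4.26 came first, with overlapping ranges. IL-13 followed at 12.8 ± 1.75, apart from IFNα, and from there to IL-17A at 7.51 ± 0.91 all neighbours in the order overlapped.

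At the IFIT1 start site (chr10:89392309-89392809), the unstimulated libraries held 6.70, 8.72, 9.12 and 6.45 per Mb. IFNα libraries held 19.2, 23.1, 17.6 and 18.6 per Mb and IFNγ libraries 12.7, 16.0, 14.7 and 14.8 per Mb. The 3 groups did not overlap, with IFNα highest. Log2 changes of 1.29 ± 0.18 with IFNα and 0.88 ± 0.18 with IFNγ (limma adjusted p = 5.5e-08 and 4.2e-04) were found, and the difference between the interferons did not pass the test in any of the alternatives run (adjusted p 0.128 to 0.648 over them). The third group mean was that of IL-6 at 10.0 ± 1.59 per Mb (SD, n = 4), apart from IFNγ at 14.6 ± 1.38, and TGF-β1 was last at 5.78 ± 0.74. All neighbours from IL-6 down overlapped.

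The IFIT2 start site (chr10:89301831-89302331), which also carries 2 ISRE matches, was called with neither interferon. Unstimulated libraries held 9.32, 12.7, 12.6 and 9.79 per Mb, IFNα libraries 13.7, 13.0, 14.3 and 12.2, and IFNγ libraries 14.9, 15.8, 18.1 and 17.4. IFNα libraries overlapped the unstimulated ones and IFNγ libraries lay above both. The log2 change of 0.26 ± 0.17 with IFNα was not called (limma adjusted p = 0.702), and that of 0.57 ± 0.17 with IFNγ missed the threshold (adjusted p = 0.0595). The IFNγ value was called under 4 alternatives, with adjusted p of 0.0446 with a pseudocount of 2, 0.0226 with only peaks of mean coverage 1 per Mb or more, 0.0295 with quality weights and 0.00817 with only the groups compared, and the range over all alternatives was 0.00817 to 0.248. TNF lowered this peak by -0.67 ± 0.17 on the log2 scale (adjusted p = 0.00557), with libraries at 7.81, 4.92, 6.47 and 8.15 per Mb, all below the unstimulated ones. Without TNF replicate 2 the TNF value was -0.53 and was not called (limma adjusted p 0.00171 to 0.0936 over the alternatives). By group mean IFNγ stood first at 16.6 ± 1.47 per Mb, apart from IFNα at 13.3 ± 0.91, and all neighbours from there to TNF at 6.84 ± 1.47 overlapped.

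IFIT5 had 3 ISRE matches at its start site (chr10:89414486-89414986), and this peak too was called with neither interferon. Unstimulated libraries held 11.1, 11.8, 10.9 and 10.9 per Mb, IFNα libraries 14.1, 13.8, 12.8 and 13.4, and IFNγ libraries 9.97, 11.6, 13.2 and 14.9. All IFNα libraries lay above the unstimulated ones, but by a log2 change of only 0.26 ± 0.17 that was not called (limma adjusted p = 0.694), and the IFNγ value was 0.13 ± 0.17 (adjusted p = 0.898). Group means ran from 13.5 ± 0.57 with IFNα to 8.84 ± 1.67 with TGF-β1, and every neighbour in the order overlapped the next. None of the 5 peaks named IFIT5 was called in any of the 11 comparisons.

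**Figure D2:**
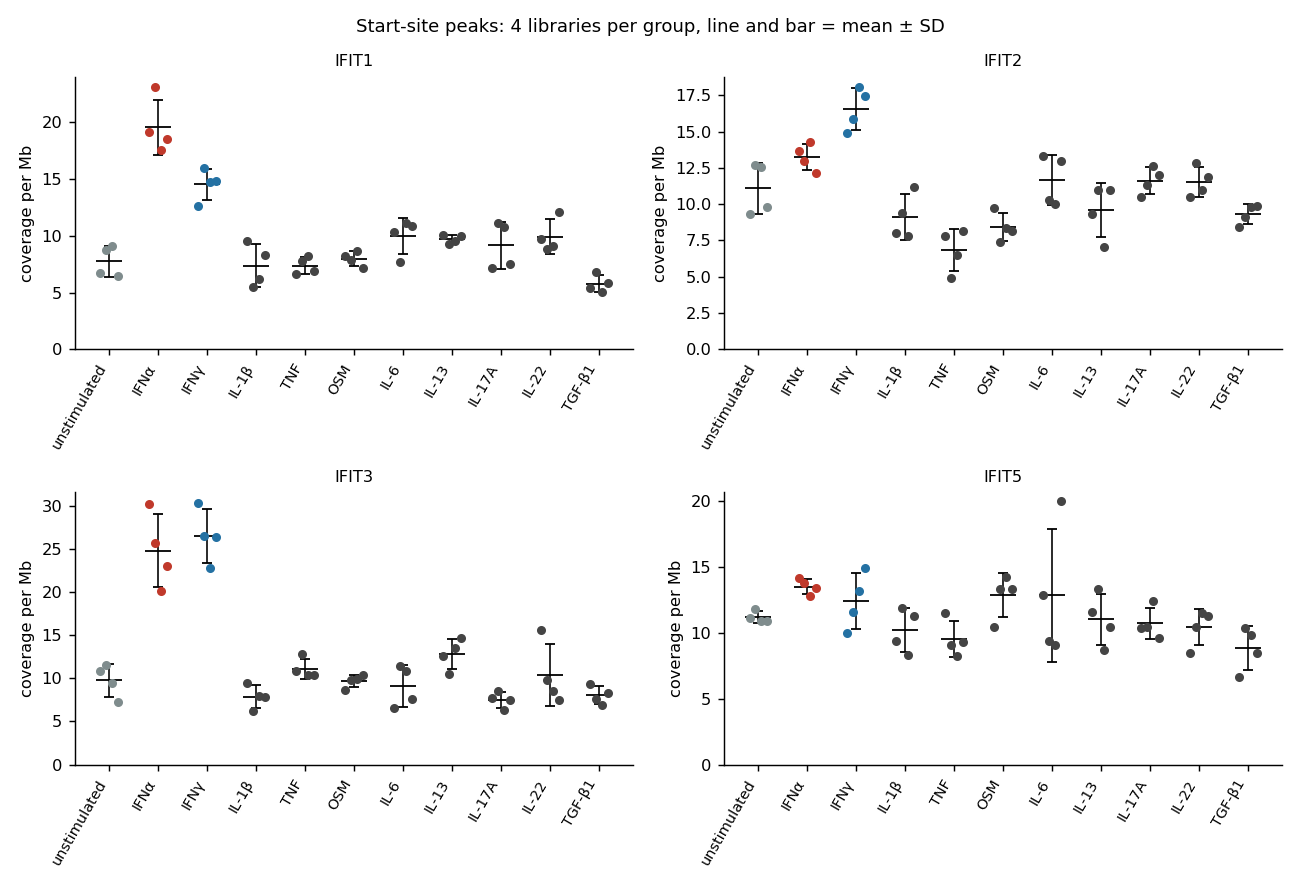
Coverage per Mb at the start-site peaks of IFIT1, IFIT2, IFIT3 and IFIT5 in all 44 libraries, by group on the x axis. Points are libraries, and the line and bar are the mean ± SD of 4. The IFNα and IFNγ libraries stand above the unstimulated ones at IFIT1 and IFIT3, while at IFIT5 the IFNγ points lie among those of the other groups.

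Past the end of IFIT2, the +8.22 kb peak (chr10:89310018-89310518) had the largest log2 difference between the interferons with 0.5 added, a rank that depends on the value added. It lies beyond the canonical IFIT2 transcript, which ends at 89309271, in a LIPA intron. Unstimulated libraries held 0.560, 0.754, 0.647 and 0.458 per Mb, the equivalent of 2.84 to 3.97 reads each, so the base level is imprecise. IFNα libraries held 10.8, 14.0, 16.2 and 12.9 per Mb and IFNγ libraries 2.98, 3.82, 3.12 and 2.64. The 3 groups did not overlap, and no library of the other cytokines exceeded 1.51 per Mb. The ratio of means to unstimulated was 22.3 with IFNα and 5.20 with IFNγ. On the log2 scale with 0.5 added, the change was 3.65 ± 0.38 with IFNα (limma adjusted p = 3.3e-14) and 1.72 ± 0.38 with IFNγ (adjusted p = 0.00166). IFNα exceeded IFNγ by 1.93 ± 0.38 (adjusted p = 4.5e-04). With a pseudocount of 0.1, the IFNγ change was 2.21 and the difference 2.06, and neither was called (limma adjusted p 3.5e-05 to 0.105 and 1.7e-17 to 0.194 over the alternatives).

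Within IFIT3 the peaks called different between the interferons were higher with IFNγ. The +4.45 kb peak (chr10:89332193-89332693) covers the second RefSeq start shown above, with its 2 ISRE matches. Unstimulated libraries held 4.39, 3.79, 3.61 and 3.91 per Mb, IFNα libraries 7.27, 12.1, 8.24 and 7.74, and IFNγ libraries 22.3, 22.0, 17.7 and 18.5. The 3 groups did not overlap, here with IFNγ highest. The log2 change was 1.05 ± 0.23 with IFNα (limma adjusted p = 0.0038) and 2.22 ± 0.23 with IFNγ (adjusted p = 1.0e-14), and the difference of -1.16 ± 0.23 was called (adjusted p = 5.9e-04). Without IFNα replicate 2 the IFNα change was 0.90 and was not called (limma adjusted p 3.9e-04 to 0.0663 over the alternatives).

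The +6.16 kb peak of IFIT3 (chr10:89333906-89334406), over untranslated sequence of an IFIT3 exon, was raised with 4 cytokines. Unstimulated libraries held 0.848, 0.511, 0.422 and 0.422 per Mb. IFNα libraries held 7.17, 8.98, 6.19 and 7.98, IFNγ libraries 5.30, 3.67, 5.43 and 3.43, and TNF libraries 5.04, 4.02, 3.74 and 3.08. IL-1β libraries were lower, at 1.94, 1.59, 2.52 and 1.31 per Mb, but all lay above the unstimulated ones. The log2 change was 2.95 ± 0.35 with IFNα, 2.23 ± 0.35 with IFNγ, 2.09 ± 0.35 with TNF and 1.15 ± 0.35 with IL-1β (limma adjusted p = 2.8e-11, 3.7e-07, 1.1e-06 and 0.0357). This peak held no ISRE match. The IL-1β call was lost without any of 6 libraries (unstimulated replicates 2, 3 and 4, IL-1β replicates 1, 2 and 3), at 1.02 to 1.19, and with a pseudocount of 0.1, at 1.58 (limma adjusted p 0.0147 to 0.158 over the alternatives).

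The other 5 raised peaks named IFIT3 began lower or changed less. At +2.21 kb (chr10:89329961-89330461), unstimulated libraries held 0, 0.314, 0 and 0.659 per Mb, and IFNα libraries 3.86, 4.4, 2.60 and 3.34. IFNγ libraries lay between, at 1.72, 1.22, 1.16 and 1.81 per Mb, and the log2 change was 2.52 ± 0.38 and 1.49 ± 0.38 (limma adjusted p = 4.8e-07 and 0.00923), sizes that depend on the 0.5 added because 2 base libraries were at 0. The IFNγ call was lost without unstimulated replicate 1 or 3, at 1.33 each (adjusted p 0.00394 to 0.0758 over the alternatives). At +9.72 kb (chr10:89337467-89337967), over coding and untranslated exon sequence, the mean rose from 1.43 ± 1.04 per Mb (SD, n = 4) to 6.22 ± 0.73 with IFNα and 4.20 ± 0.49 with IFNγ. Both changes were called, at 1.94 ± 0.34 and 1.42 ± 0.34 (limma adjusted p = 4.6e-05 and 0.00438), and the IFNγ call was lost without unstimulated replicate 1, at 1.17 (adjusted p 1.3e-04 to 0.0834 over the alternatives). At +14.81 kb (chr10:89342558-89343058), past the canonical transcript and over untranslated sequence of a LIPA exon, the mean was 1.80 ± 0.80 unstimulated and 7.34 ± 1.65 with IFNα. That was a log2 change of 1.80 ± 0.34 (limma adjusted p = 2.0e-04), and IFNγ, at 4.47 ± 1.70, was not called there. The starts of LIPA-201, LIPA-206, LIPA-207 and LIPA-208, transcripts on the minus strand, lie inside this peak, which carries the IFIT3 name as deposited.

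The last of the 5, like the +14.81 kb peak, were called with IFNα and not with IFNγ. At +5.52 kb (chr10:89333266-89333766) the log2 change was 1.45 ± 0.38 (limma adjusted p = 0.0304), from 1.13 ± 0.49 to 3.86 ± 0.84 per Mb (SD, n = 4). That call was lost without unstimulated replicate 3 or 4 or IFNα replicate 2, 3 or 4, at 1.25 to 1.51, and with a pseudocount of 0.1, at 1.76 (adjusted p 9.2e-04 to 0.257 over the alternatives). At +24.47 kb (chr10:89352213-89352713), which holds 1 ISRE match in an intron shared by IFIT3 and LIPA, unstimulated libraries held 12.0, 13.4, 10.5 and 7.16 per Mb, IFNα libraries 18.3, 23.2, 16.2 and 18.2, and IL-1β libraries 5.99, 3.79, 6.34 and 5.57. IFNα and IL-1β moved it in opposite directions, by 0.81 ± 0.18 and -0.91 ± 0.18 (limma adjusted p = 0.00264 and 6.3e-05). Without unstimulated replicate 4, the lowest of its group, the IFNα change was 0.64 and was not called (limma adjusted p 7.8e-05 to 0.088 over the alternatives).

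**Figure D3:**
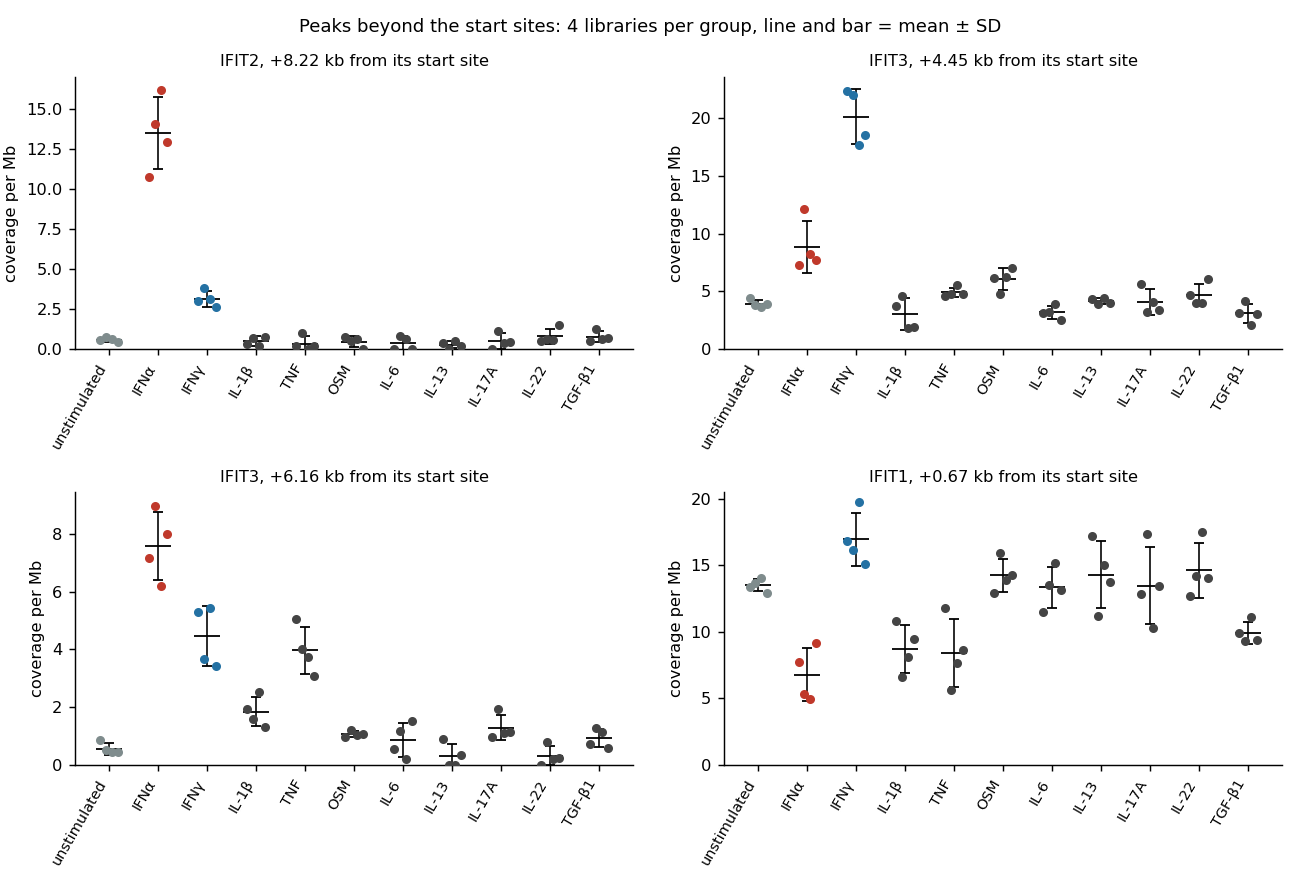
Coverage per Mb in all 44 libraries at 4 peaks outside the canonical start sites, by group on the x axis. Points are libraries, and the line and bar are the mean ± SD of 4. The IFNα points stand highest at IFIT2 +8.22 kb, the IFNγ points highest at IFIT3 +4.45 kb, the TNF points rise with both interferons at IFIT3 +6.16 kb, and the IFNα points lie below all unstimulated ones at IFIT1 +0.67 kb, where their mean is the lowest and their range overlaps those of IL-1β and TNF.

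At IFIT1 lay the 1 IFIT peak that was called lowered with IFNα. The +0.67 kb peak (chr10:89393046-89393546) covers untranslated sequence of an IFIT1 exon, a short way past the start-site peak. Unstimulated libraries held 13.4, 13.7, 14.0 and 13.0 per Mb, IFNα libraries 7.69, 5.30, 4.93 and 9.14, and IFNγ libraries 16.9, 16.2, 19.8 and 15.1. The 3 groups did not overlap, with IFNα lowest and IFNγ highest. The log2 change was -0.99 ± 0.17 with IFNα (limma adjusted p = 2.6e-05), while that with IFNγ was 0.31 and not called, and the difference of -1.30 ± 0.17 passed the test (adjusted p = 2.1e-09). IL-1β and TNF also lowered this peak, by -0.62 ± 0.17 and -0.69 ± 0.17 (limma adjusted p = 0.0125 and 0.00279). Without IL-1β replicate 2 or TNF replicate 2 those values were -0.50 and -0.53 and were not called (limma adjusted p 0.00564 to 0.133 and 3.3e-04 to 0.0855 over the alternatives).

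Just upstream, the IFIT1 -0.58 kb peak (chr10:89391792-89392292), with 1 ISRE match, nearly touches the start-site peak, so a read can add to both. It was counted separately and rose with both interferons. Unstimulated libraries held 2.09, 1.15, 2.27 and 2.14 per Mb, IFNα libraries 6.52, 4.59, 5.84 and 3.88, and IFNγ libraries 4.81, 3.99, 5.77 and 5.11. The log2 change was 1.25 ± 0.32 and 1.19 ± 0.32 (limma adjusted p = 0.0187 and 0.0171). Leaving out unstimulated replicate 2, the lowest of its group, ended both calls (1.07 and 1.01, with adjusted p of 0.00195 to 0.139 and 8.8e-04 to 0.137 over the alternatives), as did a pseudocount of 0.1 (1.42 and 1.35). The IFNα call was also lost without IFNα replicate 1 or 3 (1.14 and 1.19), and the IFNγ call without IFNγ replicate 3 or 4 (1.11 and 1.17). Further upstream, at -3.20 kb (chr10:89389175-89389675), IFNα libraries held 1.10, 1.36, 1.39 and 1.63 per Mb, and 3 of 4 IFNγ libraries were at 0 with the other at 0.318. The interferons differed there by 1.72 ± 0.38 on the log2 scale (limma adjusted p = 0.0026), a size set by the 0.5 added, and neither differed from unstimulated by the test.

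Upstream of IFIT2, a pair of neighbouring peaks in introns of IFIT2 and LIPA was raised with both interferons. These windows nearly touch, so a read can add to both, but they are counted separately. At -5.62 kb (chr10:89296172-89296672, 1 ISRE match), unstimulated libraries held 9.02, 8.61, 11.6 and 7.79 per Mb, IFNα libraries 18.6, 18.6, 14.0 and 21.0, and IFNγ libraries 15.7, 17.8, 20.5 and 13.2. Both interferon groups lay above the unstimulated libraries and overlapped each other, with log2 changes of 0.93 ± 0.19 and 0.82 ± 0.19 (limma adjusted p = 9.4e-04 and 0.00235). At -6.14 kb (chr10:89295659-89296159, the stretch with 2 ISRE matches printed above), means were 8.44 ± 1.27 per Mb unstimulated, 14.1 ± 1.21 with IFNα and 16.3 ± 1.43 with IFNγ (SD, n = 4). The IFNγ change of 0.91 ± 0.20 (limma adjusted p = 0.00103) was called in all alternatives run. The IFNα change of 0.71 ± 0.20 stood at the threshold (adjusted p = 0.0484) and was lost under 12 of 18 alternatives, among them the omission of unstimulated replicate 2, 3 or 4 or of any IFNα replicate (0.65 to 0.76).

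IL-1β was called lowered at one of this pair and TNF at the other. IL-1β lowered the -6.14 kb peak by -0.63 ± 0.20 (limma adjusted p = 0.0493), a call lost under 12 of 18 alternatives, including without any unstimulated replicate and without IL-1β replicate 1 or 2 (-0.70 to -0.46). TNF lowered the -5.62 kb peak by -0.62 ± 0.19 (adjusted p = 0.0294), which was lost without unstimulated replicate 1 or 3 or TNF replicate 1, 3 or 4 (-0.63 to -0.51). At -23.70 kb (chr10:89278100-89278600), another peak with 2 ISRE matches, over a LIPA exon, unstimulated libraries held 10.1, 8.42, 13.2 and 9.76 per Mb, IFNγ libraries 20.8, 14.3, 22.6 and 12.5, and IL-1β libraries 3.91, 3.83, 3.35 and 7.30. IL-1β libraries lay below all unstimulated ones, while 1 IFNγ library overlapped them. IFNγ raised the peak by 0.71 ± 0.18 and IL-1β lowered it, at -1.13 ± 0.18 (limma adjusted p = 0.0108 and 4.2e-07). The IFNγ call was lost without unstimulated replicate 2 (0.62), IFNγ replicate 1 (0.61) or IFNγ replicate 3 (0.57).

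Single peaks farther from the genes completed the raised set. At IFIT2 -41.50 kb (chr10:89260293-89260793) the mean rose from 4.61 ± 0.52 to 9.08 ± 1.40 per Mb with IFNα (SD, n = 4), a log2 change of 0.90 ± 0.22 (limma adjusted p = 0.0153). That call was lost without unstimulated replicate 1 or 3 or IFNα replicate 1 or 3 (0.81 to 0.89). The peak lies in a LIPA intron, nearer the canonical LIPA start (89251775) than the IFIT2 start. At IFIT2 -26.44 kb (chr10:89275360-89275860) IFNγ gave 1.47 ± 0.34 (adjusted p = 0.00338) and OSM 1.13 ± 0.34 (adjusted p = 0.044), from means of 1.14 ± 1.01 unstimulated to 3.59 ± 0.79 and 2.69 ± 0.17 per Mb. Without unstimulated replicate 3 the IFNγ change was 1.26 and was not called (limma adjusted p 2.6e-04 to 0.0527 over the alternatives), and the OSM call was lost without any of unstimulated replicates 1, 2 and 3 or any OSM replicate (0.92 to 1.15), or with a pseudocount of 0.1 (1.47). The peak named IFIT1B at -3.64 kb (chr10:89374162-89374662) held 13.5, 12.9, 12.2 and 12.1 per Mb unstimulated, 21.7, 22.4, 19.9 and 23.5 with IFNα, and 18.5, 18.2, 18.3 and 18.9 with IFNγ. The 3 groups did not overlap, but only the IFNα change of 0.76 ± 0.16 was called (limma adjusted p = 0.00146), in all alternatives run.

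The interferons were also compared directly. IFNα was above IFNγ at 2 IFIT peaks and below it at 3, where 0.297% and 0.878% of all tested peaks were higher and lower. Besides the 4 differences given above, IFNγ exceeded IFNα at IFIT3 +23.06 kb (chr10:89350812-89351312), an intronic peak with 2 ISRE matches. IFNα libraries held 2.51, 3.88, 4.06 and 7.81 per Mb and IFNγ libraries 7.66, 10.5, 12.3 and 8.30, so that 1 IFNα library overlapped the IFNγ group. The difference was -1.09 ± 0.26 (limma adjusted p = 0.00748), and it was lost without IFNα replicate 1 (-0.87) or IFNγ replicate 3 (-0.97). A call with IFNα and not with IFNγ, or the reverse, was not by itself a difference, since 5 peaks were raised and 1 lowered with IFNα alone and 2 raised with IFNγ alone, and of these only IFIT1 +0.67 kb also passed the direct test.

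The other cytokines called few IFIT peaks. IL-1β raised 1 and lowered 4, where 1.72% of all peaks were raised and 1.79% lowered. TNF likewise raised 1 and lowered 4, against 2.67% and 1.69%. The raised peak was IFIT3 +6.16 kb in both cases. IFIT1 +0.67 kb was lowered by both, the other 3 IL-1β peaks were IFIT2 -23.70 kb, IFIT2 -6.14 kb and IFIT3 +24.47 kb, and the other 3 TNF peaks were the IFIT2 start site, IFIT2 -5.62 kb and IFIT2 -17.86 kb. At IFIT2 -17.86 kb (chr10:89283939-89284439) the mean was 8.62 ± 1.12 per Mb unstimulated and 5.29 ± 1.12 with TNF (SD, n = 4), a log2 change of -0.67 ± 0.20 (limma adjusted p = 0.0297) that was lost without unstimulated replicate 1, 2 or 4 or TNF replicate 2, 3 or 4 (-0.69 to -0.56).

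OSM raised 2 IFIT peaks, where 1.55% of all peaks were raised, and TGF-β1 lowered 1, where 1.52% were lowered. The median change of all tested peaks was -0.22 with OSM and 0.15 with TGF-β1, and that of the 58 IFIT peaks -0.01 and 0.15. Under cyclic loess scaling the medians over all peaks were near 0 and the counts of IFIT peaks called were as before. Beside IFIT2 -26.44 kb, OSM raised IFIT2 -16.52 kb (chr10:89285280-89285780) by 1.43 ± 0.37 (limma adjusted p = 0.00965), from 0.80 ± 0.55 to 2.82 ± 0.66 per Mb (SD, n = 4), and this call was lost without unstimulated replicate 2 (1.21) or 4 (1.3). TGF-β1 lowered IFIT2 -0.67 kb (chr10:89301124-89301624) by -0.93 ± 0.29 (adjusted p = 0.0436), with 2.50, 3.10, 4.19 and 2.94 per Mb unstimulated and 0.772, 2.01, 1.37 and 1.71 with TGF-β1. All TGF-β1 libraries lay below the unstimulated ones, but the call was lost without unstimulated replicate 2, 3 or 4 or TGF-β1 replicate 1, 3 or 4 (-1.0 to -0.73), and with quality weights or only the groups compared.

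With IL-6, IL-13, IL-17A and IL-22, limma called 0 IFIT peaks, where 0.107%, 1.61%, 0.0398% and 0.0366% of all peaks were called. At an unadjusted p under 0.05 the counts were 7, 6, 4 and 2 of 58. The shares of all tested peaks at that threshold were 8.65%, 11.3%, 6.45% and 7.15%. The count became 1 for IL-6 without IL-6 replicate 1 or replicate 2 and stayed 0 for the other 3 cytokines in every alternative run. Over all tested peaks, the IL-6 calls numbered 436. They numbered 23 without IL-6 replicate 4, the smallest library, and 1015 without IL-6 replicate 1.

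**Figure D4:**
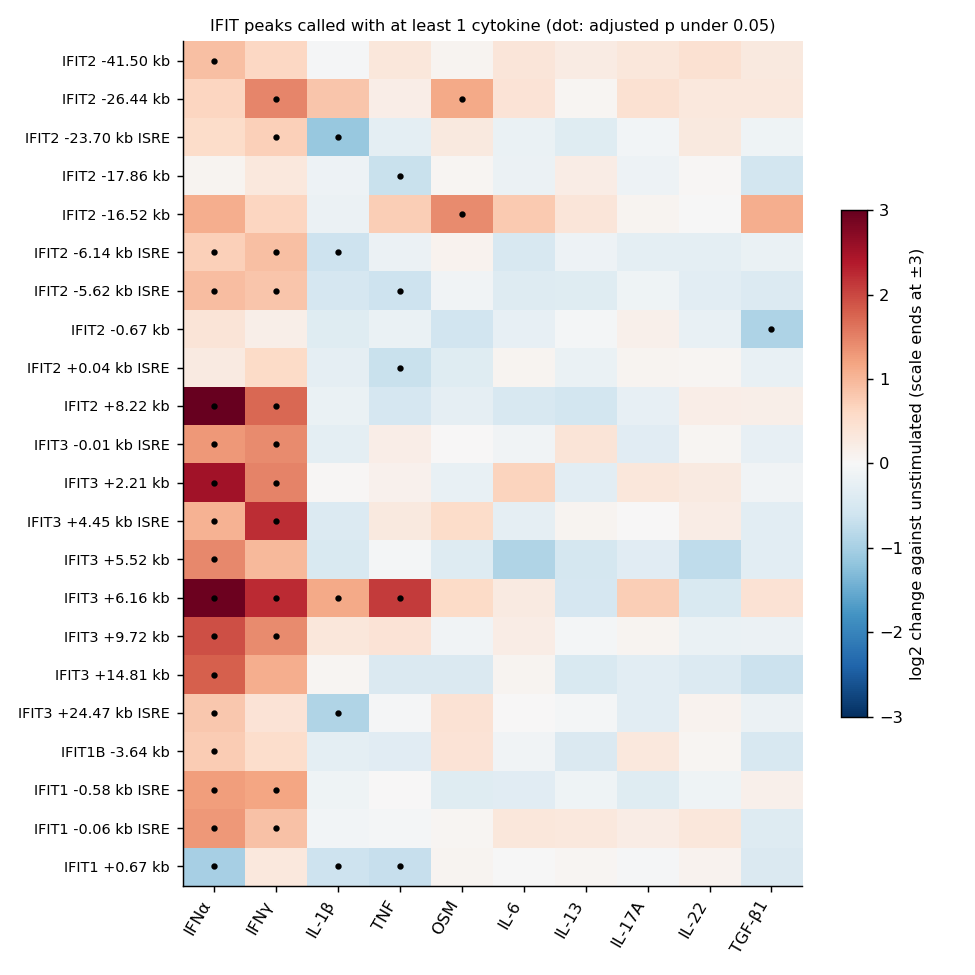
Log2 change against unstimulated for the 22 IFIT peaks called with at least 1 cytokine, 1 line per peak in genomic order, labelled by gene, distance from its own start and the presence of an ISRE match, and 1 column per cytokine. Dots mark an adjusted p under 0.05, and the colour scale ends at ±3. The columns of IFNα and IFNγ hold most dots, and those of IL-6, IL-13, IL-17A and IL-22 hold none.

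In all, 24 IFIT peaks were called in at least 1 of the 11 comparisons and 34 in none. The 34 were 12 named IFIT2, 8 named IFIT3, 6 named IFIT1B, 5 named IFIT5 and 3 named IFIT1. Their unstimulated means ran from 0.0355 to 11.2 per Mb, and their log2 changes from -0.60 to 1.19 with IFNα and from -0.69 to 1.03 with IFNγ. Over all 58 peaks the unstimulated mean had a median of 1.29 per Mb, and 25 peaks were under 1 per Mb, where changes of this kind were estimated from few reads.

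The machinery of the pathway was read from the start-site peaks of 16 genes, of which 15 had one (IFNB1, the ligand IFNβ, had none). IFNα raised 5 and IFNγ 6 of these 15, where 0.513% and 1.48% of all tested peaks were raised, and none was lowered. In limma 7 and 9 had an unadjusted p under 0.05, where 9.47% and 9.83% of all tested peaks did. The IFNα count was 3 without unstimulated replicate 4, IFNα replicate 1 or IFNα replicate 4. The median log2 change of the 15 was 0.28 and 0.43. Both interferons raised IRF9, a subunit of ISGF3 (0.89 ± 0.14 with IFNα and 0.68 ± 0.14 with IFNγ), the JAK-inhibiting feedback gene SOCS1 (0.63 ± 0.14 and 0.77 ± 0.14) and ISG15, a ubiquitin-like modifier (1.48 ± 0.14 and 1.13 ± 0.14). With IFNα the other raised genes were USP18, which removes ISG15 and damps IFNAR signalling (0.74 ± 0.21, limma adjusted p = 0.0494), and RIGI, a sensor of viral RNA (0.69 ± 0.16). With IFNγ they were JAK1 (0.62 ± 0.17), the transcription factor IRF1 (0.58 ± 0.11) and IFIH1, the RNA sensor MDA5 (1.29 ± 0.21). The 4 receptor genes and JAK2, TYK2 and STAT2 were called with neither. In the direct comparison limma called 0 of the 15, with 6 at an unadjusted p under 0.05, where 9.36% of all tested peaks passed. When only the groups compared entered the fit, 2 were called. Some of these genes were also raised by other cytokines. Each of those except TGF-β1 raised 1 or 2 of the 15, where at most 2.67% of all tested peaks were raised (TNF). JAK1 was raised with OSM (0.59), IL-6 (0.80), IL-13 (0.60), IL-17A (0.83) and IL-22 (0.93), and SOCS1 with IL-1β (0.49), OSM (0.72), IL-6 (0.83), IL-13 (1.05) and IL-22 (0.80). TNF raised TYK2 (0.40), and TGF-β1 raised none and lowered STAT2 (-0.25) and RIGI (-0.71).

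**Figure D5:**
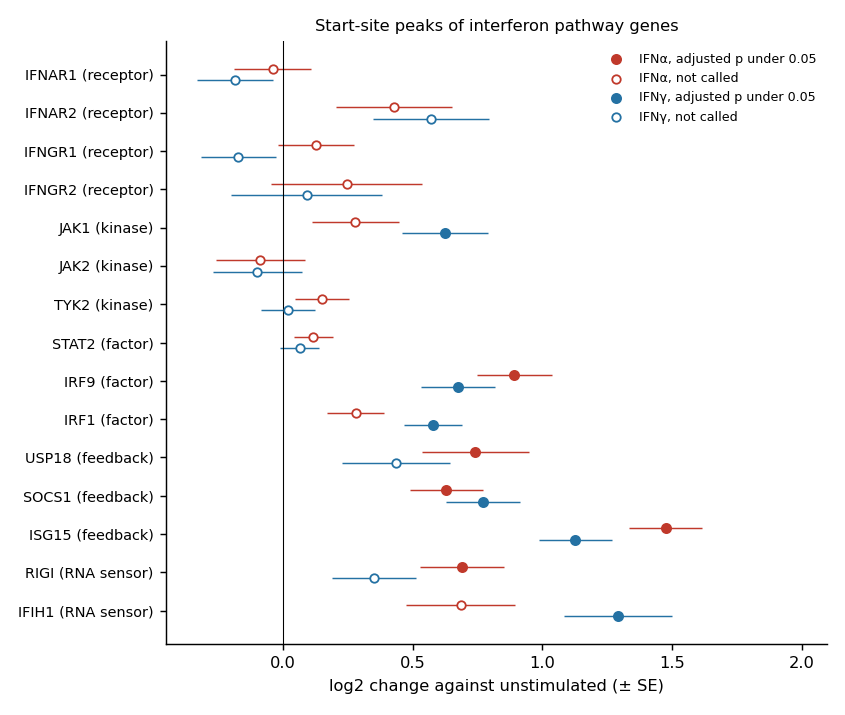
Log2 change against unstimulated (± SE, x axis) at the start-site peaks of 15 interferon pathway genes, with their role in brackets, for IFNα and IFNγ. Filled points passed an adjusted p under 0.05. IRF9, SOCS1 and ISG15 are filled for both, and the receptors for neither.

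The start sites of 5 flanking genes, LIPA, the cholesterol hydroxylase gene CH25H, the transporter gene SLC16A12, the pantothenate kinase gene PANK1 and the kinesin gene KIF20B, were not called with either interferon. These were canonical start sites, and the LIPA log2 change was -0.0038 ± 0.12 with IFNα and -0.08 ± 0.12 with IFNγ. LIPA transcripts cross nearly all IFIT peaks, and some start inside them. LIPA-201, LIPA-206, LIPA-207 and LIPA-208 start inside the IFIT3 +14.81 kb peak, which was raised with IFNα. LIPA-203 starts inside the IFIT5 start-site peak, which was called with neither interferon. The 5 genes outside the cluster whose start-site peak most resembled the mean of the 4 IFIT start-site peaks, by Pearson correlation over the 11 group means among 16261 genes, were TRIM22 (0.957), BST2 (0.950), BATF2 (0.949), OAS1 (0.948) and MX2 (0.947). This likeness is a description over group means that share libraries, depth and scaling, and no test was made of it.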

How the data were processed

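The data were ATAC-seq of 44 Ccd18-Co libraries, 4 per group, with groups taken from the sample titles. The authors processed reads with the ENCODE ATAC-seq pipeline, per the study's methods, and their notes name MACS2 and hg38. Each deposited signal value adds up the coverage of every base in a 500-base peak, with no scaling for depth, so a read overlapping in part adds less. The study's methods describe a consensus peak set, assembled from MACS2 peaks and filtered, for a smaller set of libraries. How the peaks of these 44 libraries were chosen, and whether reads were shifted to the transposase cut, is not given in the sources used here. The labels describe 48-well culture and the study's methods larger wells for ATAC-seq. For IL-1β, a figure legend of the study gives a lower dose than the 0.1 ng/ml of its methods. Whether deposited starts count from 0 or 1 is not stated, and sequence was read from the base after each start.

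Coverage was divided by library total (Mb) and a trimmed-mean composition factor (30% of log ratios and 5% of means trimmed), 0.5 was added and log2 taken, which understates changes of low peaks. Peaks with log2 mean at or under -3 were dropped. limma 3.58.1 (R 4.3.3) was fitted to all 44 libraries with group as the only term and a mean-variance trend, after a test on simulated data, and p-values were adjusted by Benjamini-Hochberg over 407176 peaks. Intervals on log2 changes are SEs and those on group means are SDs of 4 libraries. Reads were taken as 75 bases where read numbers are given. Motifs, start sites (window 1000 bases) and exons came from hg38, GENCODE v44 and RefSeq. Named were each gene's start-site peak and every IFIT peak called with any cytokine or between the interferons, with the pathway and flanking genes called with an interferon. A further gene of the pathway list is not reported here. The members and lists were chosen with earlier results of these data known. Alternatives were other scalings, pseudocounts of 0.1 and 2, filters, quality weights, only the groups compared, a replicate block, peaks chosen by position and leaving out each library.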

Additional observations from a re-analysis of the deposited data

Results flagged for a closer look

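Single libraries were compared with the other 3 of their group at 25 IFIT peaks, those called in a comparison and the start sites, giving 275 groups of 4. A library stood apart in 14 of them, by a gap to its nearest neighbour, as a share of the group's range, above Dixon's 95% critical value, and chance alone gives about 1 group in 20. Values are per Mb.

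At peaks named IFIT2, IFNα replicate 3 was at 3.058 at -26.44 kb (others 1.38 to 1.491) and IL-1β replicate 4 at 7.303 at -23.70 kb (others 3.353 to 3.908). IL-13 replicate 3 reached 2.964 at -16.52 kb (others 0.566 to 0.7789). At -6.14 kb, IL-22 replicate 1 was at 10.97 (others 5.452 to 6.227) and OSM replicate 1 at 12.69 (others 7.61 to 8.446). At +8.22 kb, IL-22 replicate 4 was at 1.513 (others 0.4884 to 0.6405).

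At peaks named IFIT3, TNF replicate 4 was at 0.4417 at +2.21 kb (others 0.1929 to 0.2302) and IL-6 replicate 3 at 0.6857 at +5.52 kb (others 0.1966 to 0.2761). At +9.72 kb, IL-1β replicate 3 was at 1.991 (others 1.588 to 1.654) and IL-17A replicate 1 at 3.406 (others 0.6444 to 1.116). At +24.47 kb, IL-17A replicate 2 was lowest at 5.606 (others 9.176 to 9.593).

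At peaks named IFIT1, IFNγ replicate 2 was at 0.3178 at -3.20 kb while the other 3 were at 0. At -0.58 kb, unstimulated replicate 2 was lowest at 1.146 (others 2.086 to 2.271) and IL-17A replicate 2 highest at 2.542 (others 0.9338 to 1.125).

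The direct comparison of IFNα with IFNγ passed the threshold at 5 IFIT peaks (limma, Benjamini-Hochberg adjusted). The log2 difference, IFNα minus IFNγ, was 1.934 at IFIT2 +8.22 kb, -1.162 at IFIT3 +4.45 kb, -1.085 at IFIT3 +23.06 kb, 1.715 at IFIT1 -3.20 kb and -1.301 at IFIT1 +0.67 kb.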

How the results depend on the processing

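No call of an IFIT peak turned its direction, while for the pathway genes only the counts of calls were followed. Of 46 calls of an IFIT peak in a comparison, 22 held under every alternative run and 24 were lost under at least 1. The counts of IFIT peaks called were 12 to 17 for IFNα, 8 to 17 for IFNγ and 4 to 7 for IFNα against IFNγ, and the lowest IFNγ count came from using only the 39 peaks between the ends of the IFIT genes. Peaks under 1 per Mb in unstimulated libraries, 25 of 58, rest on few reads, and there the pseudocount sets the size of a change.

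Smaller counts of IFIT peaks called moved with the setting. For IL-1β (5) the count was 3 with a pseudocount of 0.1 and 3 with peaks chosen by position. For TNF (5) it was 3 by position. For OSM (2) it was 1 with a pseudocount of 0.1, 5 with quality weights and 0 by position. For TGF-β1 (1) it was 2 with library totals only, 2 with a pseudocount of 2, 2 with a mean of at least 1 per Mb, 0 with only the groups compared and 0 by position. Leaving out 1 library gave 2 to 5 for IL-1β (2 without IL-1β replicate 2), 2 to 4 for TNF (2 without TNF replicate 2), 0 to 2 for OSM (0 without unstimulated replicate 2), 0 to 1 for IL-6 and 0 to 2 for TGF-β1.

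For the 15 pathway start sites, IL-1β (1) gave 2 with cyclic loess, 0 with a pseudocount of 0.1, 2 with a mean of at least 1 per Mb and 2 with quality weights. TNF (1) gave 3 with a mean of at least 1 per Mb, 3 with quality weights and 2 with only the groups compared. OSM (2) gave 1 with cyclic loess, 1 with a pseudocount of 0.1 and 4 with quality weights. A pseudocount of 0.1 gave 1 for IL-6 (2), 1 for IL-13 (2), 0 for IL-17A (1) and 1 for TGF-β1 (2), for which median-of-ratios factors also gave 1. IFNα against IFNγ (0) gave 2 with only the groups compared. Leaving out 1 library gave 3 to 5 for IFNα (5), 0 to 1 for IL-1β, 0 to 2 for TNF, 1 to 2 for OSM, 1 to 2 for IL-6, 1 to 2 for IL-13, 0 to 2 for IL-17A, 1 to 2 for IL-22 and 1 to 2 for TGF-β1. The cause of these shifts was not tested.

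The groups share replicate numbers, but deviations of libraries with the same number correlated at -0.0165 to 0.0255, within the -0.0411 to 0.0411 of other pairs, so the numbers were not taken to pair the libraries. With the replicate number as a block, the counts of IFIT peaks called were the same as without it, 16 for IFNα, 12 for IFNγ, 5 for IL-1β, 5 for TNF, 2 for OSM, 1 for TGF-β1, 5 for IFNα against IFNγ and 0 for the others. The pathway counts with the block were 5 for IFNα and 6 for IFNγ.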
